A study of Mus musculus with 24 samples.

Results

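Of 10 genes of iron uptake, storage and export, the transferrin receptor gene Tfrc had the largest change against control when 4T1 cells were kept in lactic acid. It was 4.6-fold lower than in control cells on day 3 and was still 3.21-fold lower on day 11. The 10 genes cover iron uptake (Tfrc, Trf, Slc11a2, Steap3 and Steap4), storage (Fth1, Ftl1 and Ncoa4), export (Slc40a1) and sensing (Ireb2). They were chosen by name for these roles. All 10 were measured, among 19938 genes that had a probe set (the group of array probes read as a single value) carrying only that gene's symbol. Each gene was followed through the probe set with the highest mean over the 24 arrays.

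4T1 is a mouse mammary carcinoma cell line, and all cultures came from this single line. Control cells had been grown with 3 mM glucose, and treated cells with 3 mM glucose plus 20 mM lactic acid for 1, 3, 4, 5, 7, 9 or 11 days. Total RNA of each of these 8 groups was hybridised to 3 Affymetrix mouse gene arrays, labelled as biological replicates. The labels give neither the time in culture of the controls nor whether replicates were separate cultures, so p-values measure only the spread between these arrays. The 7 comparisons with control share the same 3 control arrays, and time in lactic acid cannot be told apart from time in culture.

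Most cells take up iron bound to transferrin through the transferrin receptor, reduce it in the endosome with a Steap reductase and pass it to the cytosol through the metal transporter encoded by Slc11a2. Iron that is not used is stored in ferritin, a shell of heavy and light chains, from which the receptor NCOA4 delivers it to autophagy, and ferroportin, encoded by Slc40a1, is the exporter. When iron is scarce, the iron regulatory proteins, encoded by Aco1 and Ireb2, bind iron responsive elements. They hold back ferritin and ferroportin translation and stabilise Tfrc mRNA, so that ferritin is set largely at translation, which mRNA arrays do not measure.

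The start regions of Tfrc and Ncoa4, the genes whose mRNA level departed from control on the most days, and of Ireb2, which shares a motif with Ncoa4, are shown because the first pair moved in opposite directions. Each stretch runs 5′ to 3′ on the plus strand of GRCm38.p6 from RefSeq, from 100 bases before to 20 bases from an annotated transcript start. Capitals mark ACGTG, the core letters of the hypoxia response element, in Tfrc and, on the other strand as CACGT, in Ncoa4. They also mark TCTCGCGAGA, the longest palindrome shared by windows of at least 2 of the 10 genes, in Ncoa4 and Ireb2. RefSeq promoter windows matched 7 of the 10 genes.
Tfrc chr16:32608796-32608915: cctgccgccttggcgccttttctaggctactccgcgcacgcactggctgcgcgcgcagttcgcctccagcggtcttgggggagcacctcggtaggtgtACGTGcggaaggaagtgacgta
Ncoa4 chr14:32159787-32159906: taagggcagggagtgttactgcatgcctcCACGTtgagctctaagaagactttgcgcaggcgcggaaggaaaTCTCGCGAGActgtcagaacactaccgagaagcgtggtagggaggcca
Ireb2 chr9:54863655-54863774: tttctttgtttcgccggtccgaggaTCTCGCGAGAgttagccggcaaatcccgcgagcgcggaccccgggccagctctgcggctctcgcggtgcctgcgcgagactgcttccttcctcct
Searched on both strands, ACGTG occurred in 19.6% of 32851 promoter windows and TCTCGCGAGA in 0.466%. These windows are longer than the stretches shown, so the shares are not those of stretches of that length. Both motifs were chosen after expression values had been seen, and no binding was measured. An iron responsive element was searched on the sense strand as a bulged C, 5 bases, the loop CAGTGN and 5 bases that pair with the first 5. These letters were found in 0.0791% of the windows, after the transcript start in 0.00609%, and in none of the 14 windows of these genes. The windows end 50 bases after the transcript start, so most of each mRNA lies outside them. Trf, Slc40a1 and Slc11a2 had no window. At so low a share, finding none in 14 windows says nothing about these mRNAs.

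The deposited values are log2 signals, and every change below is a difference of group means on that scale. A gene was called in a comparison when its adjusted p (limma, Benjamini-Hochberg over all 19938 genes) was below 0.05. Day 1 replicate 1 stood apart, with a correlation of 0.963 with its own group's other arrays. It also had the highest median (4.75) and the lowest SD over genes (1.94) of the 24 arrays. Called values that it moved by over 1.5 times are given with and without it. Epithelial markers matched the cell line: 5 of 6, among them Krt8 and Krt18, lay above the array median on all 24 arrays, Epcam being the exception. Among markers of other cells, 2 of 8 leukocyte genes (Cd68 and Cd14), 3 of 6 fibroblast genes, 1 of 6 hepatocyte genes and none of the endothelial, adipocyte or 2 measured erythroid genes did so. Array means of the leukocyte list ran from 4.08 to 4.45 on day 1 and reached at most 4.33 in the other groups. Those of the endothelial list ran from 3.43 to 4.08 on day 1 and reached at most 3.71 elsewhere. The fibroblast list had array means of 4.61 to 4.70 in control, 4.47 to 5.05 on day 1, 5.14 to 5.38 on day 3 and 4.89 to 5.03 on day 11, above all controls on each day from 3 on. Within it Pdgfra went from a mean of 7.28 in control to 9.06 on day 11, while Dcn and Lum had highest arrays of 4.14 and 2.72. Whether any of these lists bears on the values below was not tested. In RNA from whole cultures, fewer cells with a transcript and less of it per cell cannot be told apart.

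**Figure D1:**
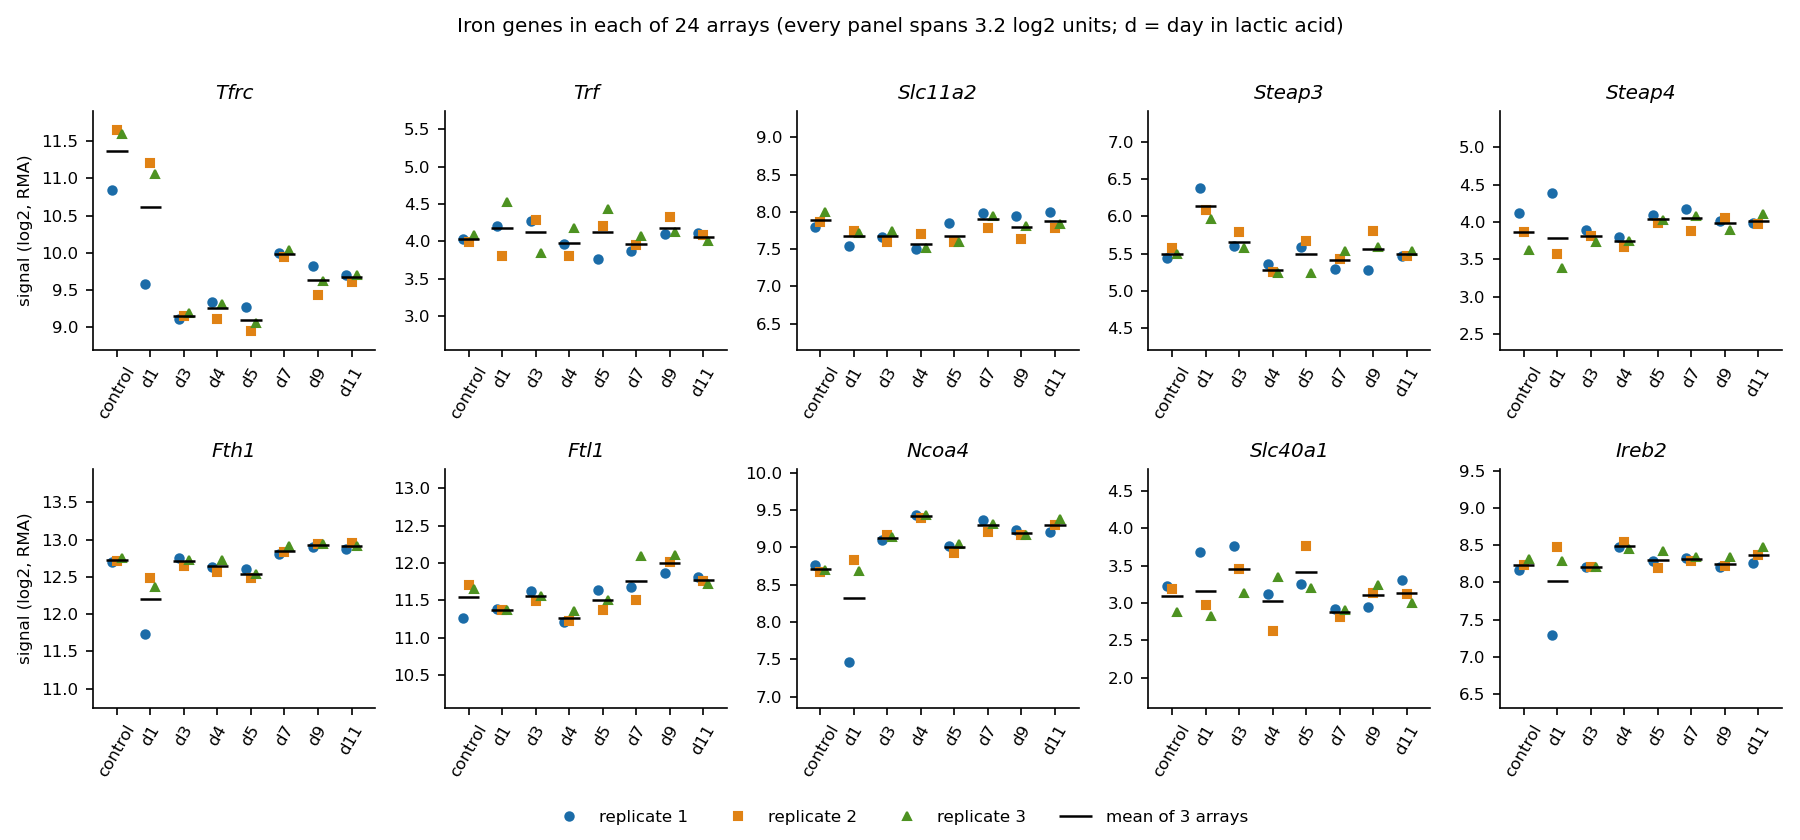
Log2 signal of each of the 10 genes (vertical axis) in every array of the 8 groups (horizontal axis, where d is the day in lactic acid). Points are arrays and bars are group means, and every panel spans the same number of log2 units. Tfrc lies below all control arrays from day 3 on, Ncoa4 lies above them, and day 1 replicate 1 is the lowest array of its group for Tfrc, Fth1, Ireb2 and Ncoa4.

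Tfrc, the receptor that takes up transferrin with its iron, was measured at 10.84, 11.65 and 11.59 in the 3 control arrays. On day 1 it read 9.58, 11.21 and 11.06. These groups overlapped, and the difference of -0.74 (SE 0.27) did not pass (limma, adjusted p = 0.111). It was -0.23 without replicate 1, the lowest of the day, and it passed without replicate 2 (-1.04, adjusted p = 0.0142) or replicate 3 (-0.96, adjusted p = 0.0428).

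On day 3 the Tfrc arrays stood at 9.12, 9.16 and 9.20, on day 4 at 9.34, 9.12 and 9.32, and on day 5 at 9.28, 8.95 and 9.06. All 9 lay below every control array. Tfrc fell by 2.20 on day 3 (SE 0.27, adjusted p = 9.44e-07), by 2.10 on day 4 (adjusted p = 1.39e-06) and by 2.26 on day 5, when it was 4.8-fold lower (adjusted p = 6.24e-07).

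Later arrays read 10, 9.94 and 10.04 on day 7, then 9.83, 9.44 and 9.62 on day 9, and 9.71, 9.61 and 9.71 on day 11. They too lay below all controls, with Tfrc falling by 1.37 (adjusted p = 3.36e-04), 1.73 (2.09e-05) and 1.68 (2.88e-05). No call from day 3 to day 11 was lost when any single array of either group was omitted. All day 7 arrays lay above all day 5 arrays, but the step of 0.90 missed the threshold (limma, adjusted p = 0.0525); it passed with day 1 replicate 1 out of the fit (3.34e-04). The 3 lowest group means of Tfrc were those of days 3 to 5, and the steps within that span did not pass (adjusted p = 0.893 and 0.772). The 95% confidence intervals of those 2 steps ran from -0.46 to 0.65 and from -0.72 to 0.39.

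Steap3, an endosomal reductase of the transferrin cycle, was the uptake gene that rose on day 1. Its arrays read 5.44, 5.57 and 5.49 in control and 6.38, 6.09 and 5.96 on day 1. Every day 1 array was above every control array, and Steap3 rose by 0.64 (SE 0.14, 1.56-fold, limma, adjusted p = 0.00823), or by 0.52 without day 1 replicate 1. By day 3, at 5.6, 5.79 and 5.58, it was 0.48 lower than on day 1 (a change of -0.48, adjusted p = 0.0101). Its later group means lay between 5.28 and 5.56 beside 5.50 in control, and none of these differences passed. When only the 6 arrays of control and day 1 entered the fit, the rise did not pass (adjusted p = 0.295).

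Slc11a2, the transporter that moves ferrous iron out of the endosome, ranged from 7.50 to 8 over all arrays, with a median of 7.77. All 3 arrays were below the controls on days 1, 3 and 4, and day 4 passed (-0.32, SE 0.11, limma, adjusted p = 0.0435). That call was lost without 4 of its 6 arrays in turn (control replicates 2 and 3 and day 4 replicates 1 and 3), where adjusted p reached 0.171, and with arrays centred on their medians (0.142). On days 7 to 11 the means were 7.91, 7.80 and 7.88 beside 7.89 in control. Trf, the transferrin gene itself, ranged from 3.76 to 4.53 and exceeded its own array's median in 1 of 24 arrays. Steap4, a plasma membrane reductase, ranged from 3.38 to 4.39 and exceeded the median in 0 of 24. Neither gene passed on any day (limma, lowest unadjusted p = 0.389 for Trf and 0.334 for Steap4), and the 95% confidence intervals of their changes lay within -0.42 to 0.50 for Trf and -0.50 to 0.53 for Steap4.

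Of the storage genes, Fth1, the ferritin heavy chain with ferroxidase activity, was at 12.70, 12.71 and 12.75 in control. On day 1 its arrays read 11.74, 12.49 and 12.37, all below the controls. Fth1 fell by 0.52 (SE 0.13, limma, adjusted p = 0.0233). The lowest of these arrays was again replicate 1, without which the change was -0.29 (adjusted p = 0.0628). The call was also lost without control replicate 1, 2 or 3 (0.0683, 0.0768 and 0.0805), with arrays centred on their medians (0.0956) and with only the 6 compared arrays in the fit (0.515). On day 3 the arrays were back at 12.75, 12.65 and 12.72, a step of 0.51 from day 1 (adjusted p = 0.0049), or of 0.28 without day 1 replicate 1 (0.0181). On day 7 they read 12.80, 12.83 and 12.92, on day 9 they read 12.90, 12.94 and 12.94, and on day 11 they read 12.87, 12.95 and 12.91. All 9 lay above every control array, yet the differences of 0.13, 0.20 and 0.19 did not pass (limma, adjusted p = 0.557, 0.298 and 0.374). With day 1 replicate 1 out of the fit, day 9 passed (adjusted p = 0.0482).

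Ftl1, the ferritin light chain, read 11.26, 11.71 and 11.65 in control, where replicate 1 was low. On day 9, at 11.87, 12.02 and 12.11, all arrays were above the controls, and Ftl1 rose by 0.46 (SE 0.14, 1.38-fold, limma, adjusted p = 0.0113). That call did not hold without control replicate 1 (0.32, adjusted p = 0.104), without day 9 replicate 3 (0.41, 0.0593) or without the 3 arrays with the highest medians, 2 of which are of day 9 (0.33, 0.221), nor with centred arrays (0.35, 0.0827). On day 4 Ftl1 read 11.21, 11.22 and 11.36, and its change of -0.27 passed only without control replicate 1 among the single arrays left out (-0.41, adjusted p = 0.034). Ferritin genes have near-identical copies, and 4 other probe sets carrying Ftl1 beside other symbols were not used, so its values are uncertain to that extent. Over the 8 group means the chains had a Pearson r of 0.75, from means of the same arrays.

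Ncoa4, the receptor that hands ferritin to autophagosomes, read 8.76, 8.67 and 8.70 in control. On day 1 it read 7.46, 8.83 and 8.68, with replicate 1 far below the other arrays of that day. The day 1 change of -0.39 did not pass (limma, adjusted p = 0.271) and was 0.04 without that array. On day 3 the arrays stood at 9.10, 9.16 and 9.14, on day 4 at 9.44, 9.39 and 9.43, and on day 5 at 9.02, 8.93 and 9.05. Every one was above every control array. On day 7 they read 9.37, 9.20 and 9.31, on day 9 they read 9.24, 9.17 and 9.17, and on day 11 they read 9.21, 9.30 and 9.38, again all above the controls.

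Ncoa4 rose on day 4 (0.71, SE 0.20, 1.63-fold, limma, adjusted p = 0.01), day 7 (0.58, 0.0371) and day 11 (0.58, 0.0359). On days 3, 5 and 9 the differences of 0.42, 0.29 and 0.48 did not pass (0.148, 0.343 and 0.0900). The spread of its day 1 arrays (SD 0.75) enters the error of every comparison, while the SD within each other group was at most 0.09. With day 1 replicate 1 out of the fit, Ncoa4 passed on each day from 3 to 11, with adjusted p from 2.59e-07 to 0.00814. With that array kept, the calls of days 7 and 11 were lost without any 1 of the 6 arrays of either comparison (0.0569 to 0.114, and 0.0565 to 0.112), and with arrays centred on their medians (0.0803 and 0.0917). The second probe set of the gene gave -0.36 on day 1 and then 0.37, 0.64, 0.26, 0.53, 0.39 and 0.48 on days 3 to 11. Both probe sets thus moved alike, highest on day 4. Which transcript copies each of them measures is open, so they may not be independent.

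**Figure D2:**
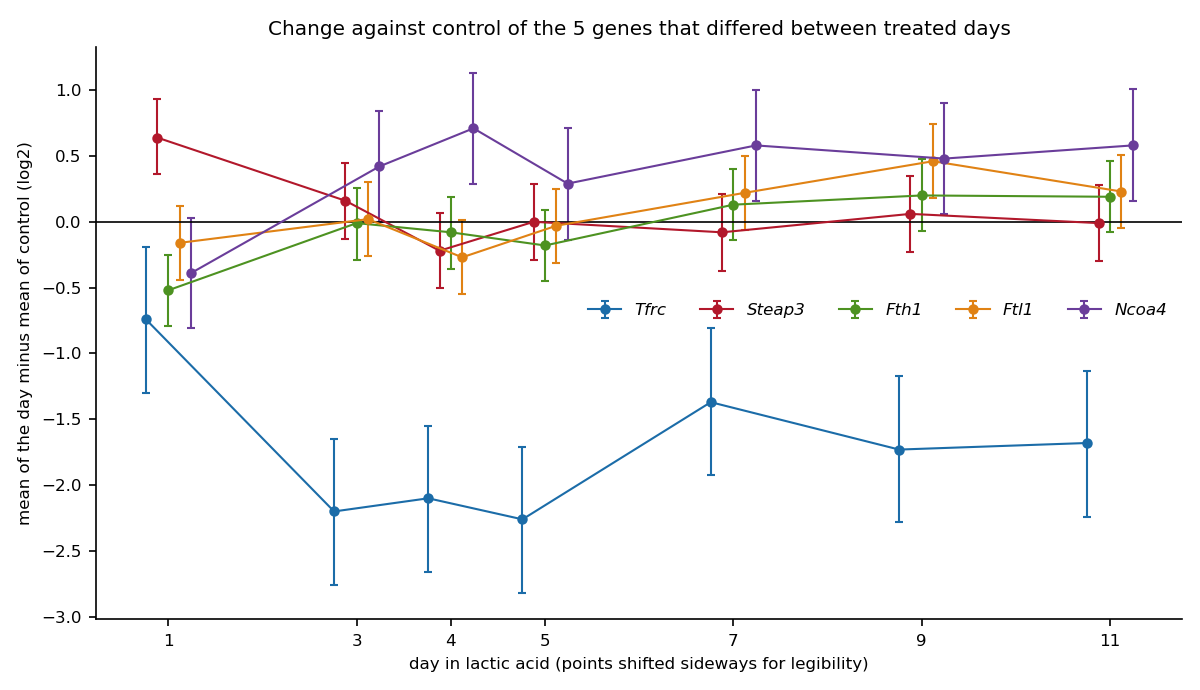
Change against control (vertical axis, log2, group mean minus control mean, bars showing the 95% confidence interval) on each treated day (horizontal axis) for Tfrc, Fth1, Ftl1, Steap3 and Ncoa4, the 5 genes whose F test over the treated days passed. Tfrc reaches -2.26 on day 5 and is at -1.37 or lower from day 3 on, while the other 4 lie between -0.52 and 0.71.

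Slc40a1, the iron exporter ferroportin, gave low signals, from 2.62 to 3.77, and exceeded its own array's median in 0 of 24 arrays. No day passed against control (limma, lowest unadjusted p = 0.11), every group overlapped the controls, and the 95% confidence intervals of its changes lay within -0.66 to 0.79. At such dim signal a change in Slc40a1, Steap4 or Trf could be understated.

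Ireb2, the iron regulatory protein that is degraded when iron is plentiful, passed on no day, with a lowest unadjusted p of 0.179 (limma). Its arrays read 8.17, 8.23 and 8.32 in control, and its group means ranged from 8.02 to 8.49. The lowest array of all was day 1 replicate 1 at 7.30, beside 8.47 and 8.29 in the same group. On day 4, at 8.47, 8.54 and 8.45, all arrays exceeded the controls, but the difference of 0.25 (SE 0.18) did not pass (limma, adjusted p = 0.373); it passed with day 1 replicate 1 out of the fit (0.0318). Over all days the 95% confidence intervals of its changes lay within -0.59 to 0.62.

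Other genes of iron sensing moved where Ireb2 did not pass. Aco1, the other iron regulatory protein, read 8.69, 8.72 and 8.76 in control and 8.12, 8.14 and 8.27 on day 11. All arrays of day 11 lay below the controls. Aco1 fell by 0.33 on day 5 (limma, adjusted p = 0.0236), 0.39 on day 7 (0.008), 0.76 on day 9 (6.27e-06) and 0.55 on day 11 (3.57e-04). Its day 9 arrays read 8.23, 7.77 and 7.89, and the lower 2 are among the 3 arrays with the highest medians. The call of day 5 was lost without control replicate 2 or 3 or day 5 replicate 2 or 3 (0.0599 to 0.0760). With arrays centred on their medians the calls of day 5 (-0.33, 0.0978) and day 7 (-0.36, 0.0757) were both lost. Fbxl5, the ubiquitin ligase adaptor that marks IREB2 for degradation, read 7.88, 7.85 and 7.94 in control and 8.49, 8.55 and 8.65 on day 11. It rose on day 3 (0.55, adjusted p = 0.00387), day 4 (0.49, 0.00871), day 9 (0.43, 0.0196) and day 11 (0.67, 5.26e-04), but its day 5 and day 7 means of 7.95 and 7.92 lay near the control mean of 7.89. The day 9 call was lost without control replicate 1 or 2 or day 9 replicate 3 (0.0520, 0.0636 and 0.101). Centred arrays lost the calls of day 3 (0.46, adjusted p = 0.0766), day 4 (0.48, 0.0589) and day 9 (0.32, 0.21), and kept that of day 11.

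**Figure D3:**
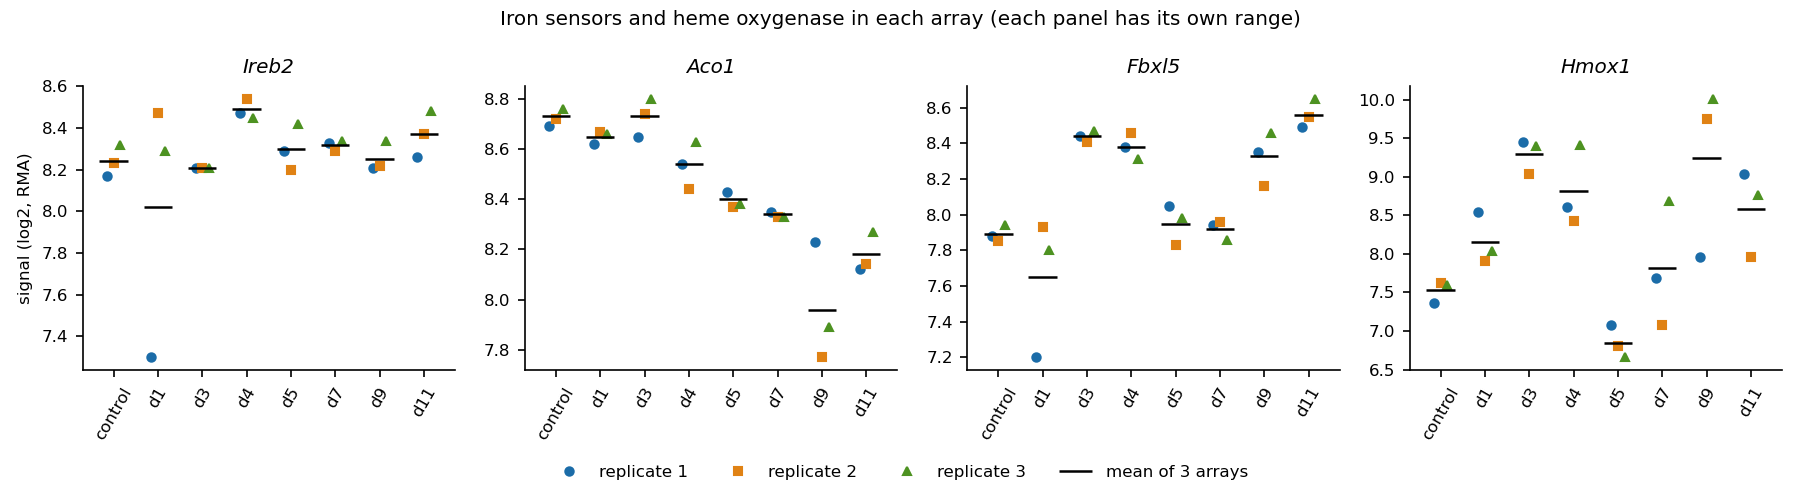
Log2 signal in each array (points; vertical axis, with a range of its own in each panel) and group mean (bars) of Ireb2, Aco1, Fbxl5 and Hmox1 over control and the 7 treated days (horizontal axis). The mean of Aco1 is 8.73 in control and 7.96 on day 9, where its arrays spread from 7.77 to 8.23. Fbxl5 is high on days 3, 4, 9 and 11, and the 3 Hmox1 arrays of day 9 spread from 7.96 to 10.01.

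Counted over the 10 genes, 1 was higher (Steap3) and 1 lower (Fth1) on day 1, when 4.81% of all genes passed in either direction. On day 3 only Tfrc passed, beside 26.3% of all genes. On day 4 Ncoa4 was higher and Tfrc and Slc11a2 lower (26.9% of all genes), and on day 5 Tfrc alone passed (27.5%). Tfrc was lower and 1 storage gene higher on day 7 (Ncoa4; 25.4% of all genes), day 9 (Ftl1; 27.2%) and day 11 (Ncoa4; 25.8%). From day 3 on, 1 to 3 of 10 genes is a share near or below that of all genes, so the counts set the group apart from other genes on none of these days. With day 1 replicate 1 out of the fit, 1, 2, 4, 2, 2, 4 and 2 of the 10 passed over the 7 days in order of time, beside 4.59%, 34.1%, 34.1%, 36.1%, 32.9%, 34.7% and 31.9% of all genes. Without regard to any p, the arrays of 3, 4, 5, 3, 3, 5 and 4 of the 10 did not overlap with control over the same days, beside 20.9%, 46.7%, 47.7%, 44.5%, 50%, 41.1% and 46% of all genes.

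The step between sampled days with the most calls was day 1 to day 3, both among the 10 genes and among all genes. Over that step Fth1 and Ncoa4 rose and Tfrc and Steap3 fell, 4 of 10 beside 27.3% of all genes. That count does not set the 10 apart from other genes. Without day 1 replicate 1 the step was 0.28 for Fth1, 0.38 for Ncoa4, -1.98 for Tfrc and -0.36 for Steap3. All 4 passed (limma, adjusted p = 0.0181, 0.00236, 4.62e-09 and 0.0443). The dim genes Slc40a1 (0.55, 0.0339) and Steap4 (0.34, 0.0366) then passed too. When only the 6 arrays of those days entered the fit, none of the 4 passed (limma, adjusted p from 0.0563 for Tfrc to 0.195 for Ncoa4). None of the 10 passed in later steps with limma and all arrays. In order of time, 1.31%, 12.3%, 5.2%, 4.76% and 0.0451% of all genes did. Of the 10, 2, 1, 3, 0 and 0 had an unadjusted limma p below 0.05. With day 1 replicate 1 out of the fit, Ncoa4 passed from day 3 to 4 and from day 4 to 5. Tfrc, Fth1, Slc40a1 and Ncoa4 passed from day 5 to 7. The share of all genes was not counted for any step in that fit, so these calls do not set the 10 apart. Against control on day 3, leaving that array out moved the share of all genes from 26.3% to 34.1%. A moderated F test over the 7 treated days passed for Tfrc (adjusted p = 4.49e-04), Steap3 (5.80e-04), Fth1 (7.07e-04), Ftl1 (0.00105) and Ncoa4 (0.00171), 5 of 10 beside 44.8% of all genes.

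A further 59 measured genes of iron and heme handling were grouped in 5 lists. On day 1, 1 of them was higher and 8 lower, beside 2.3% and 2.52% of all genes in each direction. On day 3, 11 were higher and 11 lower (12.4% and 13.9% of all genes), and on day 11, 9 were higher and 6 lower (14% and 11.8%). The median change of the 59 was -0.05, 0.05 and 0.03 on those days, and that of all genes 0.05, 0.07 and -0.03.

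Among 13 genes of iron entry, reduction and oxidation, 0 rose and 2 fell on day 1, and 4 rose and 0 fell on day 11. The list's medians were 0.04 and 0.12. Cp, the ferroxidase ceruloplasmin that oxidises iron leaving the cell, read 8.16, 8.12 and 7.97 in control, then 4.88, 6.01 and 6.06 on day 1, and 11.42, 11.43 and 11.57 on day 11. It fell by 2.43 on day 1 (limma, adjusted p = 7.20e-08; 0.0989 with only the 6 compared arrays in the fit) and rose by 3.39 on day 11 (2.98e-12). It lay below all controls at first and above them all from day 3 on. Lcn2, which binds iron-carrying siderophores, went the same way, from a control mean of 9.35 to 7.68 on day 1 (adjusted p = 5.48e-06; 0.101 with 6 arrays) and 11.88 on day 11 (1.17e-10). The changes of Fth1, Ftl1 and Slc40a1 stayed between -0.52 and 0.46 over the same days.

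Of 11 genes of iron sensing and systemic control, 1 fell on day 1, and 1 rose and 2 fell on day 11, with medians of -0.08 and -0.01. Erfe, a hormone that erythroid precursors use to restrain hepcidin, fell by 0.65 on day 1 (limma, adjusted p = 0.0357) and fell by 1.69 on day 11 (7.54e-08). Its day 11 arrays read 5.29, 5.23 and 4.64 beside 7.08, 6.58 and 6.56 in control, with no overlap. The day 1 call was lost without control replicate 1 (0.192) or 2 (0.0611) or day 1 replicate 1 (0.0805), with centred arrays (0.0555) and with only the 6 compared arrays (0.372).

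Among 18 genes of mitochondrial iron and iron-sulphur cluster assembly, 5 fell and 0 rose on day 1, 8 fell and 3 rose on day 3, and 4 fell and 3 rose on day 11. The medians were -0.22, -0.17 and 0.00. Nubp1 and Nubp2, which form a scaffold for cytosolic iron-sulphur clusters, fell by 0.83 (limma, adjusted p = 5.56e-04) and 1.05 (3.43e-06) on day 11. The cluster scaffold gene Iscu rose by 0.69 (0.00334) and Lyrm4, a partner of the cysteine desulphurase, by 0.97 (5.46e-06) on the same day. Iscu had been called lower on day 3, with a mean of 7.38 beside 7.86 in control. That day 3 call was lost without 5 of the 6 compared arrays in turn. Genes of cluster assembly thus passed in both directions. Nfu1, a late-acting cluster carrier, fell on day 1 by 0.64 (0.00228; 0.262 with only the 6 compared arrays).

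In heme synthesis, none of 8 genes passed in either direction on days 1, 3, 4 or 11 with limma, where 0, 1, 0 and 1 had an unadjusted p below 0.05, and 1 passed on each other day. Of 9 genes of heme transport and breakdown, 1 rose on day 1, 3 on day 3 and 1 on day 11, with medians of 0.09, 0.01 and 0.14. Abcg2, an exporter that accepts porphyrins, rose by 0.67 on day 1 (limma, adjusted p = 8.21e-04, or 0.168 with only the 6 compared arrays). Its signal was dim, with day 1 arrays at 4.19, 4.28 and 4.21, below the lowest array median of 4.4. Blvrb, a biliverdin reductase, rose by 0.51 on day 11 (limma, adjusted p = 0.0105), a call lost without control replicate 2 or 3 (0.0757 and 0.0564). Hmox1, the heme oxygenase that frees iron from heme, rose on day 3 (1.77, 0.00186), day 4 (1.28, 0.0203) and day 9 (1.71, 0.00232). Its day 9 arrays read 7.96, 9.75 and 10.01, replicate 1 being near the highest control of 7.62, and without replicates 2 and 3 and day 1 replicate 1 the change was 0.43 (0.569). The day 4 call was lost without control replicate 1 (0.0714) or day 4 replicate 3 (0.125).

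**Figure D4:**
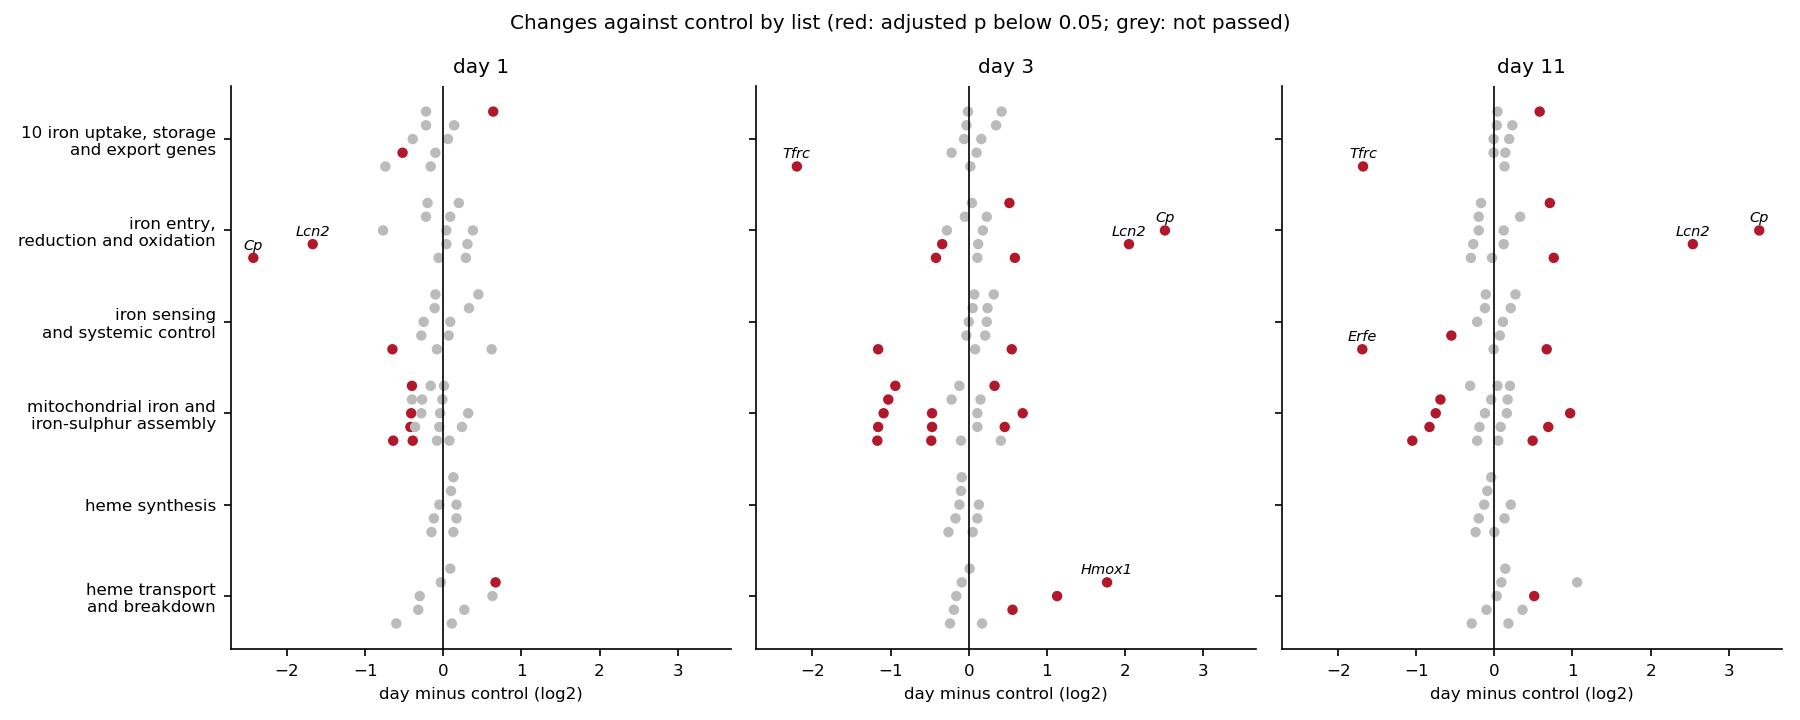
Change against control (horizontal axis, log2) of every measured gene of the 6 lists (rows) on days 1, 3 and 11, with red points for adjusted p below 0.05 and grey for the rest; vertical position within a row carries no value. Named points mark large changes of genes described in the text. Cp and Lcn2 lie left of 0 on day 1 and right of it later, Tfrc lies far to the left on days 3 and 11, and heme synthesis genes cluster near 0.

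The genes whose 8 group means followed those of Tfrc most closely, among 3441 with a range of at least 1 log2 unit, were Bzw2 (Pearson r = 0.988), Hnrnpd (0.985) and Rab30 (0.981). For Ncoa4 they were Parp9 (0.993), Tasor (0.992) and Hcfc2 (0.992), and for Fth1 they were Chka (0.979), Nae1 (0.969) and Mir692-1 (0.967). Steap3 was followed by Serpinb2 (0.929), Vmn1r174 (0.900) and Acsbg1 (0.895), and Ftl1 less closely by Rpp40 (0.854), Tmem269 (0.844) and Mir680-1 (0.831). For Ireb2 they were Ctsh (0.952), Ccdc173 (0.932) and Rybp (0.924). Among the 10 genes themselves, Ireb2 and Ncoa4 had an r of 0.88, Steap3 and Ireb2 of -0.93, and Tfrc and Ncoa4 of -0.67. These are descriptions over 8 means of the same 24 arrays, including day 1 replicate 1, in which Ireb2, Ncoa4 and Fth1 were all low.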

How the data were processed

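Mouse 4T1 cells were measured on 24 arrays in 8 groups of 3, grouped by their labels. The authors deposited log2 values per probe set, which the submitters' processing notes credit to Affymetrix Expression Console 1.1 and RMA; the log base was read from the range of values, 0.96 to 14.71. The genome build is not given in the sources used here. RMA normalizes between arrays, so a shift shared by all genes is removed.

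Platform annotation gave 1 symbol to 21789 of 35557 probe sets, several to 1621 and none to 12147, which left 19938 genes. A single limma 3.58.1 model in R 4.3.3 (lmFit and eBayes, 16 residual degrees of freedom) gave each day against control, each step between sampled days and an F test over treated days. The procedure was tested on simulated data. Plots used Python 3.11.15 and matplotlib 3.10.9.

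The 10 genes and the lists were chosen with earlier results of these data known. All 10 were described; from each other list, up to 2 rises and 2 falls of day 11 and 1 each of day 1 that passed without overlap were named, together with Aco1, Fbxl5, Cp, Hmox1 and Lcn2, and the 3 genes most alike over group means. Alternatives covered probe set choice, dim genes, normalization, centring, variance model, array weights, arrays in the fit, a replicate block, threshold and left-out arrays. Deviations of same-numbered arrays were not correlated (medians -0.02, 0.02 and -0.01), so numbers were not used as pairs. Precision is limited by 3 arrays a group.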

Additional observations from a re-analysis of the deposited data

Results flagged for a closer look

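A limma test between day 1 and day 3 passed for 4 of the 10 genes, beside 27.3% of all genes. It asks whether the change against control differed between these days. For Tfrc the change went from -0.74 to -2.20, a difference of -1.46 (adjusted p = 1.66e-04). For Fth1 it went from -0.52 to -0.01, a difference of 0.51 (0.0049), which was 0.28 without day 1 replicate 1. For Steap3 it went from 0.64 to 0.16, a difference of -0.48 (0.0101). For Ncoa4 it went from -0.39 to 0.42, a difference of 0.81 (0.00365), which was 0.38 without day 1 replicate 1, where the day 1 change was 0.04. All 3 arrays of day 3 lay on the same side of all 3 arrays of day 1 for each of the 4 genes. The share of all genes that did so is not given here. When only the 6 arrays of these days entered the fit, none of the 4 passed (limma, adjusted p from 0.0563 to 0.195).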

How the results depend on the processing

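The falls of Tfrc on days 3 to 11 kept their direction and call in every alternative run. Dim signal limits Slc40a1, Steap4, Trf and Abcg2. The counts of the 10 genes called that moved by over 1.5 times were as follows. Shares of all genes were not counted under these settings, except against control with day 1 replicate 1 out of the fit. The counts therefore do not set the 10 apart from other genes. Cyclic loess gave 2 on day 3 and 1 between days 5 and 7. Omission of the dimmest 40% of genes also gave 1 there. Centring gave 1 on each of days 1, 7, 9 and 11, and 4 of the 59 other iron and heme genes on day 1; it moved the all-gene median to -0.12 on day 9, to -0.16 from day 7 to 9 and to 0.14 from day 9 to 11. An adjusted p below 0.01 gave 1 on each of days 1, 4, 7, 9 and 11, and 4 of the 59 on day 1. With only the compared arrays in the fit the counts were 0 of 10 and 0 of 59 on day 1 (limma; 3 of 10 had an unadjusted p below 0.05 with all arrays in the fit), 2 on day 3, 0 from day 1 to 3, and 1 each from day 4 to 5 and 5 to 7. The causes were not tested.

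Without the 3 arrays that stood apart (day 1 replicate 1 and day 9 replicates 2 and 3) the counts were 2 on day 3, 2 on day 5, 3 from day 3 to 4, 2 from day 4 to 5, 4 from day 5 to 7, and 23 of the 59 on day 11. Omission of day 1 replicate 1 alone, chosen after seeing the data, gave 2 on day 3, 2 on day 5, 4 on day 9, 1 from day 3 to 4, 1 from day 4 to 5 and 4 from day 5 to 7. Array weights, whose estimation stopped before its tolerance was reached, gave 8, 3, 6, 2 and 4 on days 1, 3, 4, 5 and 9, and 10 in the F test. No share of all genes was counted with weights, so the weighted counts do not set the 10 or the 59 apart. Between days they gave 7 from 1 to 3, 3 from 3 to 4, 1 from 4 to 5, 3 from 5 to 7, 4 from 7 to 9 and 1 from 9 to 11. Of the 59 they gave 29, 37, 39 and 34 on days 1, 7, 9 and 11. With them Slc40a1 turned to -0.27 (limma, adjusted p = 0.0417) and Nubp1 to 0.29 (2.44e-04) on day 1. Replicates 1, 2 and 3 of day 1 had weights of 0.01, 0.5 and 28.3. The weighted counts and values of day 1 therefore rest largely on replicate 3.

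Each array of the compared groups was also left out in turn, and for the F test each treated array. Arrays of groups outside a comparison were not left out in these runs. Shares of all genes were not counted in these runs, except against control without day 1 replicate 1. The ranges below therefore do not set the 10 or the 59 apart. Of the 10, 1 to 4 were called on day 1, 1 on days 3, 5, 7 and 11, 2 to 4 on day 4 and 1 to 2 on day 9. The step from day 1 to 3 gave 4 to 6, each later step 0 and the F test 5 to 7. Of the 59, 4 to 15 were called on day 1; over days 3, 4, 5, 7, 9 and 11 the ranges were 17 to 20, 16 to 19, 19 to 21, 17 to 20, 15 to 22 and 13 to 15. With the replicate block, the call of Slc11a2 on day 4 was lost (-0.32, adjusted p = 0.0504) and no other call of the genes named changed.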
